A study of Musa acuminata AAA Group with 12 samples.

Results

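In the pulp of Cavendish banana, 117 of the 35273 genes in the tables were lower in chitosan-coated fruit than in control fruit on day 1 and also had a lower mean in control fruit on day 7 than on day 1. These 117 genes are described here. They were chosen by their FPKM, the sequenced fragments of a gene scaled by gene length and by library size. A gene was a member when its lowest day 1 control library had an FPKM of at least 2, when that value plus 1 was at least 1.5 times the highest day 1 coated library plus 1, and when its mean in day 7 control fruit was below its mean in day 1 control fruit. The first 2 conditions compare coated with control fruit on day 1 and the last compares control fruit on day 7 with day 1, so the values of those contrasts are given as a description and were not tested for the members. A further 120 genes met the day 1 conditions but had a day 7 control mean that was not below the day 1 control mean, and they are used as the set for comparison. The day 7 coated libraries took no part in the choice. The tables give the IDs without product names, so the members are named by ID and by position on the DH Pahang version 2 genome.

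Banana is a climacteric fruit, in which a burst of ethylene sets off ripening. During ripening the starch of the pulp is broken down to sugars, the cell walls loosen and the peel loses its green colour. Many genes that are active in unripe pulp lose expression while genes of ethylene production, starch breakdown and wall softening gain it. Chitosan is derived from chitin, and a coat of it on the peel limits gas exchange and is used to slow ripening. The genes described here had already less RNA in coated pulp than in control pulp on the first sampled day, which is also the direction in which they went in control pulp later on.

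All fruit were ethylene-treated fingers of Musa acuminata (AAA Group, Subgroup Cavendish), and the RNA came from the pulp. The 4 groups were day 7 fruit dipped in 1.25% chitosan (7A), day 7 fruit without a coating (7K), day 1 fruit dipped in 1.25% chitosan (1A) and day 1 fruit without a coating (1K). Each group had 3 biological replicates, a, b and c, and whether they came from separate bunches is not given in the sources used here. Because each library is a bulk sample of pulp, fewer cells of a type and less RNA per cell cannot be told apart.

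The libraries held 6136363 to 13307004 implied fragments in 7A, 11616358 to 16553611 in 7K, 11078141 to 13583579 in 1A and 11455312 to 12982982 in 1K, where 7A_c was the low one. In the study's own read statistics 5 libraries had a lower read GC content than the others, namely 7A_c, 7K_c, 1A_a, 1A_b and 1K_c. These 5 stood apart from the other 7 on the second principal component of all tested genes, which held 22.3% of the variance against 63.8% on the first. The lower read GC group thus held 1 of 3 libraries in 7A, 7K and 1K and 2 of 3 in 1A. Of the 35273 genes, 19746 were tested, those whose FPKM was 1 or more in 3 or more libraries, and all 117 members were among them, which the choice on 1K alone ensured.

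On day 1 the members were at well under the control level in coated pulp, and this gap is what chose them. The mean FPKM of a member was between 0 and 4741 in 1A, with a median of 16.2, and between 3.17 and 9514 in 1K, with a median of 45.3. As a ratio of means, 1A over 1K had a median of 0.405 over the members and was at most 0.632. Of the 117 members, 87 had a 1A mean under 50% of the 1K mean and 17 had a 1A mean under 25% of it. The measure that chose the members, the lowest 1K library plus 1 over the highest 1A library plus 1, ranged between 1.503 and 77.4 with a median of 1.71, so most members cleared the condition by a small margin. The highest 1A library was 1A_c for 56 members, 1A_b for 37 and 1A_a for 24. The lowest 1K library was 1K_c for 50 members, 1K_b for 42 and 1K_a for 25. Taken within the lower read GC libraries, 1A minus 1K had a median of -1.14 on the log2(FPKM + 1) scale, and within the higher read GC libraries a median of -1.11. The sign of these values was fixed by the choice, which placed every 1A library below every 1K library.

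**Figure D1:**
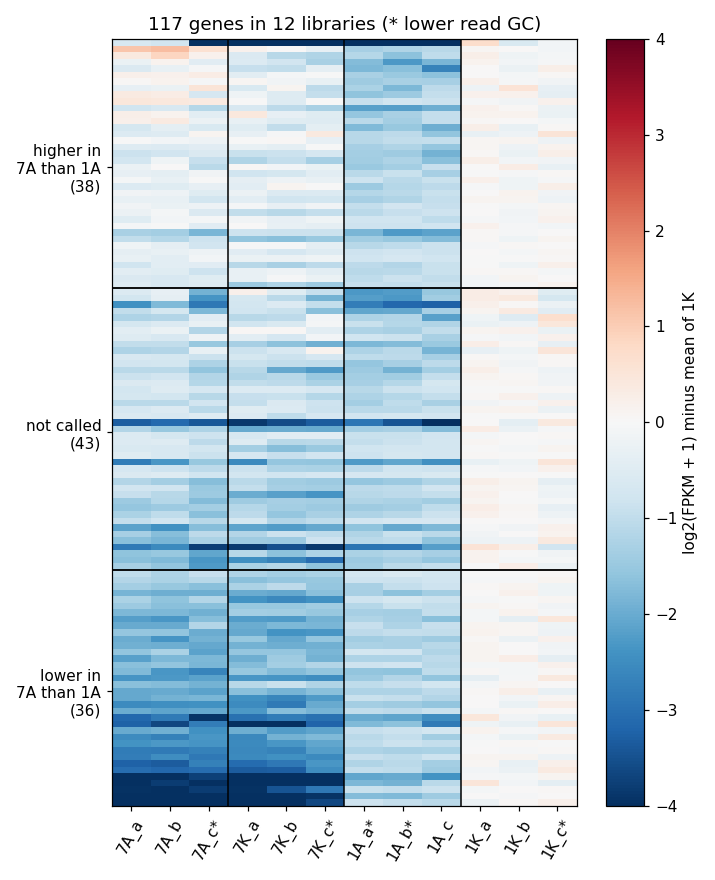
Each row is 1 of the 117 members and each column 1 library, ordered 7A, 7K, 1A and 1K, with rows grouped by the call for 7A minus 1A and an asterisk on the libraries of lower read GC content. The colour is the difference of log2(FPKM + 1) from the 1K mean of the gene, clipped at -4 and 4, and the 3 columns of 1A are below the 1K mean in every member because the members were chosen so.

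By day 7 nearly all members were below the day 1 control level in coated fruit too. The choice did not use 7A, but it asked for a high 1K, which favoured a 7A below 1K. The mean FPKM in 7A lay between 0.094 and 2936 with a median of 15.4, and the ratio of means 7A over 1K had a median of 0.479. Of the 117 members, 110 had a 7A mean below the 1K mean, 95 of them with every 7A library below every 1K library. The remaining 7 members had a 7A mean above the 1K mean, by up to 2.201 times. In control fruit all members were chosen to be below their day 1 mean, but they differed in how far. The mean FPKM in 7K lay between 0 and 1977 with a median of 15.4, and the ratio of means 7K over 1K had a median of 0.422 and reached 0.989. In 69 members the 7K mean was under 50% of the 1K mean and in 17 it was under 10%, while in 9 members it was 90% to 100% of it. In 96 of the 117 members every 7K library was below every 1K library. How often all libraries of 7A or of 7K lay below all of 1K was not computed over all tested genes. The 95 and 96 members are therefore a description only.

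Coated fruit of day 1 were already lower than control fruit of day 7 in 55 members by their means, and in 43 of these every 1A library was below every 7K library. In 61 members the 1A mean was above the 7K mean, and in 40 of these every 7K library was below every 1A library. The members therefore hold genes that were lower in coated fruit on day 1 than in control fruit on day 7, beside genes for which day 1 coated fruit were between the control fruit of both days. Since 1A was chosen low and 7K was chosen to be below 1K, these counts are a description. The share of all tested genes without overlap between 1A and 7K was not computed.

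The 8 members with the largest day 1 gap are described with their values because they show how the groups lay. The largest value of the measure, 77.4, belonged to Ma09_g21730 on chromosome 9 from 33594119 to 33594328, a locus of 210 bp. It had an FPKM of 74.7, 69.3 and 0 in 7A, 0 in all 3 libraries of 7K, 0 in all 3 of 1A, and 194, 76.4 and 109 in 1K. These FPKM stand for 1, 1 and 0 implied fragments in 7A and 2, 1 and 1 in 1K. A gene this short has a high FPKM from a single fragment, so the depth hardly carries its place at the top, and no fold is given for it.

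The next member, Ma07_g08380 on chromosome 7 from 6233088 to 6234890, had a measure of 5.75. Its FPKM was 4.44, 7.60 and 3.07 in 7A, 16.8, 19.0 and 14.3 in 7K, 3.32, 2.33 and 2.14 in 1A, and 32.7, 29.1 and 23.9 in 1K. No library of 7A reached the lowest library of 7K, and no library of 1A reached the lowest of 1K, so coated pulp was below control pulp on both days. Ma07_g05740 on chromosome 7 from 4180579 to 4186863 had the same layout at a lower level. It had 6.43, 5.98 and 4.13 in 7A, 9.25, 8.89 and 8.91 in 7K, 4.07, 2.76 and 3.10 in 1A, and 17.6, 16.4 and 17.2 in 1K. In both genes day 1 coated fruit held the lowest mean of the 4 groups. In the test described below, 7A minus 7K did not pass in Ma07_g08380 (limma adjusted p = 0.0594) or Ma07_g05740 (0.311). All 7A libraries were below all 7K libraries in 9.83% of all tested genes.

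Ma03_g17050 on chromosome 3 from 22336332 to 22337126 was low in every group but 1K. It had 3.08, 3.70 and 2.82 in 7A, 1.79, 2.37 and 3.00 in 7K, 4.49, 2.68 and 1.56 in 1A, and 39.5, 29.7 and 51.8 in 1K. The libraries of 7A, 7K and 1A overlapped, and none came near those of 1K. Ma02_g00910 on chromosome 2 from 7224793 to 7225086 showed the same with more spread. It had 7.00, 10.01 and 18.3 in 7A, 8.53, 18.0 and 17.6 in 7K, 10.6, 12.2 and 9.11 in 1A, and 43.9, 48.0 and 76.9 in 1K.

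Ma04_g38580 on chromosome 4 from 36047516 to 36048760 had a further step between the days. It had 1.97, 1.96 and 3.66 in 7A, 0.708, 1.26 and 2.71 in 7K, 13.8, 14.4 and 10.8 in 1A, and 59.8, 58.5 and 65.8 in 1K. Day 1 coated fruit thus stood between day 1 control fruit and both day 7 groups, without overlap. Ma05_g30470 on chromosome 5 from 40863415 to 40864754 was ordered likewise, with 6.28, 8.001 and 3.24 in 7A, 7.06, 8.21 and 7.06 in 7K, 14.9, 14.0 and 10.4 in 1A, and 86.9, 56.4 and 50.7 in 1K. The last of the 8, Ma06_g36070 on chromosome 6 from 35674162 to 35683169, was at its lowest in 1A. It had 6.89, 7.92 and 5.20 in 7A, 7.83, 5.66 and 4.67 in 7K, 2.03, 1.99 and 2.57 in 1A, and 14.6, 13.4 and 10.7 in 1K.

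**Figure D2:**
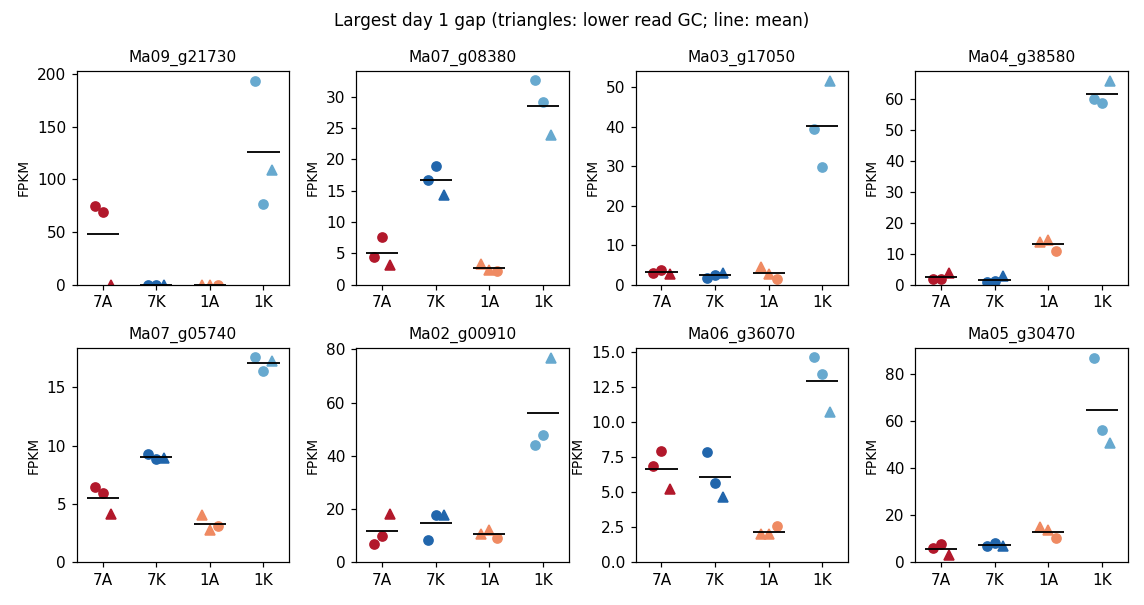
FPKM in each library (points) of the 8 members with the largest day 1 gap, with a line at the mean of each group and triangles for the libraries of lower read GC content, in the order 7A, 7K, 1A and 1K. In Ma07_g08380 and Ma07_g05740 the 3 libraries of 7A lie below those of 7K, while in Ma03_g17050 only 1K stands apart.

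The most abundant members kept a high FPKM in every group. Ma05_g16870 on chromosome 5 from 19090193 to 19091719 had 3247, 3175 and 2387 in 7A, 2266, 1790.4 and 1874 in 7K, 4557, 4887 and 4778 in 1A, and 10390.2, 9966 and 8186 in 1K. Its groups did not overlap, and it was lowest in control fruit of day 7. Ma11_g21280 on chromosome 11 from 25491449 to 25492548 had 1504, 1832 and 2189.9 in 7A, 1184, 1140.4 and 1758 in 7K, 648, 705 and 358 in 1A, and 2276, 1915 and 2669.9 in 1K. In this gene day 1 coated fruit were the lowest group, and 7A overlapped both 7K and 1K. Ma05_g07240 on chromosome 5 from 5270101 to 5271358 had 904, 1339.9 and 791 in 7A, 656, 773 and 606 in 7K, 575, 642 and 474 in 1A, and 1793, 1386 and 1379 in 1K. Here only 7K and 1A overlapped. Ma07_g15070 on chromosome 7 from 11321347 to 11325216 had 901, 865 and 445 in 7A, 630.1, 488 and 364 in 7K, 229, 259 and 360 in 1A, and 800, 792 and 550 in 1K, so that 7A reached the level of 1K. Ma06_g00390 on chromosome 6 from 308219 to 312248 had 633, 623 and 592 in 7A, 460, 320.0 and 456 in 7K, 240, 264 and 251 in 1A, and 449, 421 and 515 in 1K. All 3 of its 7A libraries were above all 3 of 1K. Ma02_g18000 on chromosome 2 from 24691390 to 24694453 had 262, 270 and 177 in 7A, 199, 190 and 165 in 7K, 158, 178 and 240 in 1A, and 409, 416 and 361 in 1K.

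The condition of 1.5 had no natural gap beside it. Just inside were Ma06_g17620 at 1.506, Ma02_g18000 at 1.504 and Ma09_g07100 at 1.503. Just outside were Ma04_g08620 at 1.498, Ma05_g02190 at 1.497 and Ma07_g07630 at 1.492. Ma09_g07100, a member, had 35.7, 35.0 and 21.4 in 7A, 31.0, 23.8 and 23.3 in 7K, 29.0, 29.8 and 35.7 in 1A, and 66.1, 64.1 and 54.1 in 1K. Ma04_g08620, which missed the condition, had 92.2, 102 and 87.9 in 7A, 111, 120.2 and 117 in 7K, 131, 133 and 122 in 1A, and 200, 224 and 230 in 1K. Both had day 1 coated libraries well below the day 1 control libraries.

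Day 7 coated fruit were next compared with day 1 coated fruit, the question being how the members went on during storage under the coating. Under the deposited scaling 38 of the 117 members rose and 36 fell (limma, adjusted p under 0.05 after Benjamini-Hochberg adjustment over all tested genes), and 43 were not called. Over all tested genes the share called was 47.3%, with 29.2% higher and 18.2% lower in 7A than in 1A. The median difference of the members was 0.17 on the log2(FPKM + 1) scale, against 0.34 over all tested genes. Every 7A library was above every 1A library in 41 members (35.0%) and below in 37 (31.6%), where the background was 30.0% above and 20.6% below. Because 1A was chosen to be low, members were more open to a higher than to a lower 7A value. The split depended on the scaling between libraries. With median-of-ratios scaling, which moved the median of all tested genes to 0.05, 17 members were higher and 45 lower, against 22.6% and 24.1% of all tested genes. With scaling to a common FPKM sum, 40 were higher and 24 lower, against 29.7% and 15%, and with quantile normalization 30 were higher and 38 lower, against 25.5% and 23.1%.

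The members that rose and those that fell in coated fruit had different levels in control fruit on day 7. The median ratio of 7K over 1K was 0.733 in the 38 that rose, 0.165 in the 36 that fell and 0.425 in the 43 not called. The calls rest on 7A and 1A and the ratio on 7K and 1K, but the choice of members used 1A, 7K and 1K, so these ratios are a description. Over the 117 members the log2 differences 7A minus 1A and 7K minus 1K, which share no library, had a Pearson r of 0.552 and a Spearman rho of 0.781, against 0.864 and 0.839 over all tested genes. These are correlations across genes, which are not independent replicates, and 7K minus 1K was part of the choice. They include Ma09_g21730, at -6.89 for 7K minus 1K and 4.13 for 7A minus 1A, whose values rest on very few fragments. A far point of this kind weighs on the Pearson r, which was not computed without it.

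**Figure D3:**
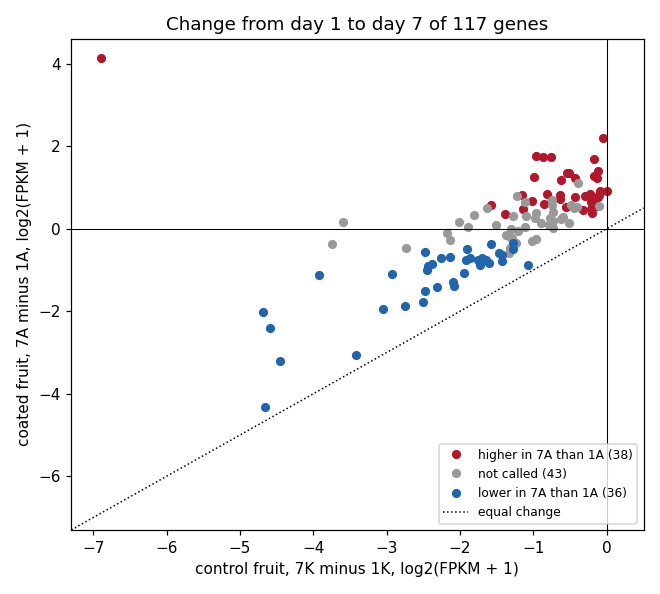
Each point is 1 member, with the difference 7K minus 1K on the horizontal axis and 7A minus 1A on the vertical axis, both in log2(FPKM + 1), coloured by whether 7A minus 1A passed the test, and the dotted line marks equal change in both treatments. The 38 members that rose in coated fruit lie mostly at small losses in control fruit and the 36 that fell at larger ones, with median 7K over 1K ratios of 0.733 and 0.165, and the point alone at the left is Ma09_g21730.

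The largest falls in coated fruit were of genes that had lost most of their RNA by day 7 in both treatments. Ma06_g17620 on chromosome 6 from 11955821 to 11957116 had an FPKM of 0.623, 0.700 and 0.408 in 7A, 0.485, 0.933 and 3.89 in 7K, 33.5, 30.7 and 28.0 in 1A, and 51.0, 61.8 and 69.0 in 1K. The day 7 libraries of both treatments overlapped and all were far below those of day 1, and 7A minus 1A was -4.33 on the log2(FPKM + 1) scale (SE 0.36, limma adjusted p = 5.1e-06). Ma04_g39430 on chromosome 4 from 36595577 to 36598300 had 0.0503, 0.290 and 0 in 7A, 0.116, 0.337 and 1.10 in 7K, 8.62, 8.48 and 10.9 in 1A, and 31.7, 29.9 and 31.5 in 1K. The difference was -3.21 (SE 0.23, limma adjusted p = 1.89e-06). Ma07_g08320 on chromosome 7 from 6202292 to 6203638 had 14.7, 12.8 and 16.6 in 7A, 14.9, 21.4 and 33.0 in 7K, 130.1, 124 and 133 in 1A, and 232, 245 and 254 in 1K. It fell by 3.06 (SE 0.23, limma adjusted p = 2.76e-06). This gene lies close to Ma07_g08380, with 5 gene rows between them in the order of the tables, but that gene was at its lowest in 1A. Ma09_g08020 on chromosome 9 from 5263594 to 5265690 had 5.18, 6.21 and 4.49 in 7A, 2.26, 2.51 and 5.14 in 7K, 27.3, 25.8 and 46.2 in 1A, and 139, 91.9 and 74.7 in 1K. It fell by 2.40 (SE 0.32, limma adjusted p = 0.000135), and Ma04_g38580, whose values are given above, fell by 2.01 (SE 0.28, limma adjusted p = 0.000202).

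The largest rises brought the members back towards the day 1 control level or past it. Ma04_g10290 on chromosome 4 from 7342867 to 7348543 had an FPKM of 13.2, 14.5 and 8.91 in 7A, 6.43, 5.57 and 4.16 in 7K, 1.59, 1.85 and 2.04 in 1A, and 5.88, 5.62 and 5.10 in 1K. All libraries of 7A were above those of the other 3 groups, and 7A minus 1A was 2.198 on the log2(FPKM + 1) scale (SE 0.20, limma adjusted p = 1.18e-05). Its 7A mean was also the highest of all members relative to 1K, at 2.201 times. Ma11_g02330 on chromosome 11 from 1680078 to 1681974 had 6.85, 10.05 and 5.74 in 7A, 3.01, 1.79 and 1.64 in 7K, 1.71, 0.914 and 1.97 in 1A, and 6.07, 4.40 and 4.74 in 1K. It rose by 1.75 (SE 0.26, limma adjusted p = 0.00028), while 7K and 1A overlapped. Ma04_g27590 on chromosome 4 from 28792497 to 28793318 had 27.4, 37.0 and 23.9 in 7A, 22.6, 19.2 and 13.0 in 7K, 9.26, 6.09 and 8.73 in 1A, and 36.6, 31.2 and 32.7 in 1K, a rise of 1.75 (SE 0.23, limma adjusted p = 0.000152). Ma11_g21280 rose by 1.73 (SE 0.29, limma adjusted p = 0.000746). Ma07_g14930 on chromosome 7 from 11211737 to 11213527 had 111, 108 and 118 in 7A, 70.8, 89.7 and 94.8 in 7K, 38.5, 33.5 and 30.3 in 1A, and 97.6, 90.9 and 98.8 in 1K. It rose by 1.69 (SE 0.15, limma adjusted p = 7.22e-06), and all its 7A libraries were above all of 1K. These 5 falls and 5 rises passed the test in each of the 24 alternatives run for them. They were picked as the extremes, and the choice of a low 1A favoured rises. The adjusted p-values do not account for either.

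**Figure D4:**
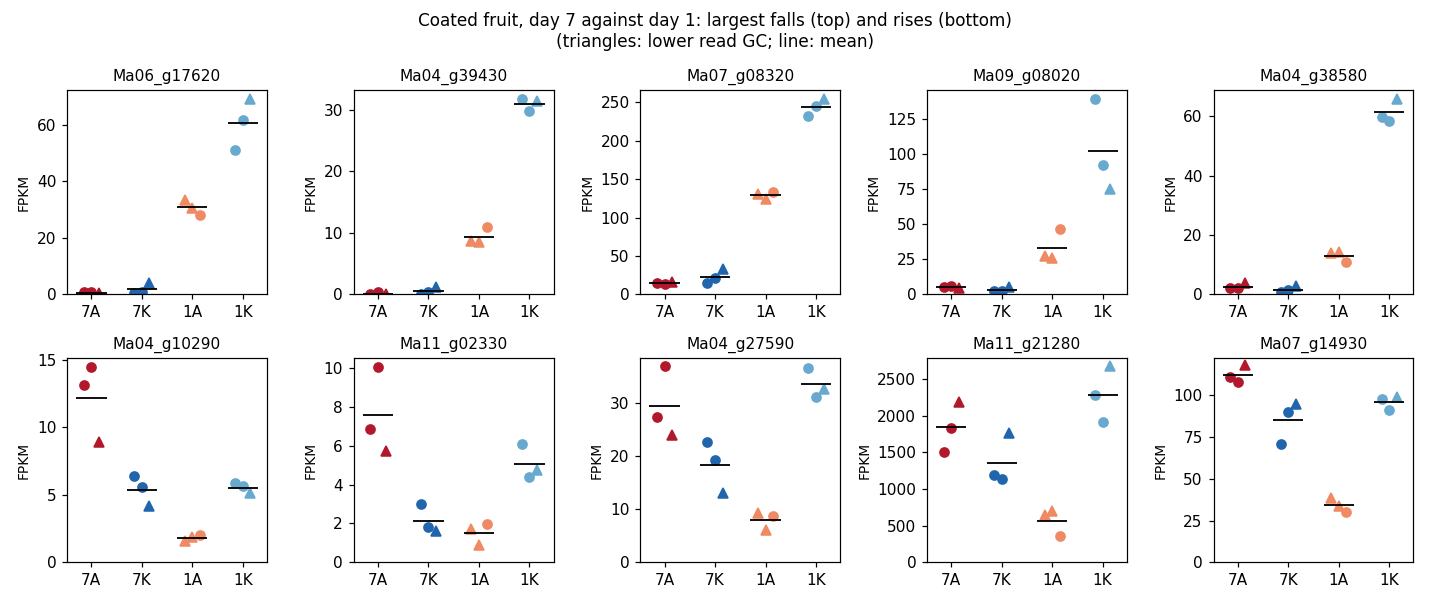
FPKM in each library (points) of the 5 largest falls (top row) and the 5 largest rises (bottom row) in coated fruit between the days, in the order 7A, 7K, 1A and 1K, with a line at the mean of each group and triangles for the libraries of lower read GC content. In the falls both day 7 groups lie below 1A and 1A lies below 1K, and in the rises 1A has the lowest mean while 7A overlaps or passes 1K.

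Some of the abundant members moved in opposite directions under the coating. Ma05_g16870 fell by 0.70 (SE 0.21, limma adjusted p = 0.0201), whereas Ma05_g07240 rose by 0.82 (SE 0.23, adjusted p = 0.0139), Ma07_g15070 by 1.34 (SE 0.32, adjusted p = 0.00581) and Ma06_g00390 by 1.29 (SE 0.17, adjusted p = 0.000129). Ma02_g18000 had a difference of 0.30 that did not pass (adjusted p = 0.26). Among the members with the largest day 1 gap, Ma06_g36070 rose by 1.25 (SE 0.21, adjusted p = 0.000771), Ma07_g05740 rose by 0.59 (SE 0.18, adjusted p = 0.0191) and Ma05_g30470 fell by 1.09 (SE 0.29, adjusted p = 0.00989). Of these genes Ma07_g08380 had a difference of 0.69 (limma adjusted p = 0.0519), Ma03_g17050 of 0.17 (adjusted p = 0.653) and Ma02_g00910 of 0.05 (adjusted p = 0.928), none of which passed. For Ma09_g21730 the adjusted p was 0.0237 with libraries that overlapped at 0 and single fragments behind the values.

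The set for comparison went a different way after day 1. Of its 120 genes, 118 rose in coated fruit between the days and none fell, with a median of 2.33 on the log2(FPKM + 1) scale. Over all tested genes 29.2% were higher and 18.2% lower, with a median of 0.34. A rise was favoured by the choice of these genes, which asked for a low 1A and a 7K mean not below 1K. The median difference 1A minus 1K was -1.17 in the members and -1.15 in these genes. Both sets met the same day 1 conditions, so the like size of the day 1 gap is a description only. Because these 120 genes were separated from the members by their day 7 control level alone, no test of the difference between the sets is given.

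Coated and control fruit were last compared on day 7, to see whether the day 1 gap persisted. The gap was not seen in the median of the members. The median difference 7A minus 7K was 0.00 on the log2(FPKM + 1) scale, against -0.13 over all tested genes, and 61 of the 117 members had a 7A mean above the 7K mean. By the test 3 members were higher in coated fruit and 0 lower (limma, adjusted p under 0.05 after Benjamini-Hochberg adjustment), where 0.142% of all tested genes were called, 0.081% higher and 0.0608% lower. At an unadjusted p under 0.05 the numbers were 20 members higher and 7 lower, of 301 genes higher and 1207 lower over all tested genes. With voom on the implied fragments 3 members were higher and 0 lower, where 0.0709% of all tested genes were higher and 0.0203% lower. All 3 libraries of 7A were above all 3 of 7K in 22 members (18.8%) against a background of 1.98%, and below in 9 members (7.69%) against 9.83%. The choice of members asked for a 7K mean below the 1K mean and so favoured low 7K values, which bears on these counts. In the set for comparison, which asked for the opposite, 6 of 120 genes (5%) had all 7A libraries above 7K and 24 (20%) had all below, and 0 were called by limma with 5 higher and 26 lower at an unadjusted p under 0.05.

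**Figure D5:**
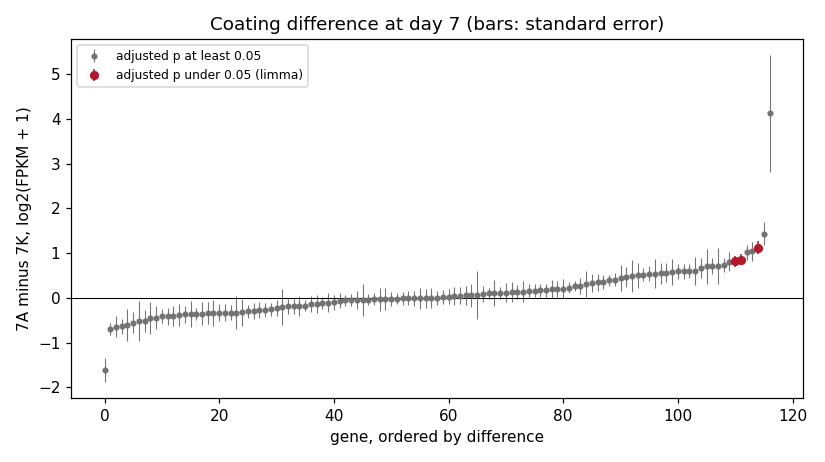
Difference 7A minus 7K in log2(FPKM + 1) of each of the 117 members, ordered by size along the horizontal axis, with the standard error as bars and the members of adjusted p under 0.05 (limma) in red. The points lie about evenly on both sides of 0, the 3 that passed the test are above it, and the highest point with the long bar is Ma09_g21730.

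The 3 members called on day 7 had no overlap between the libraries of 7A and 7K. Ma02_g11130 on chromosome 2 from 20455186 to 20457424 had an FPKM of 75.02, 58.7 and 79.9 in 7A, 33.5, 29.5 and 33.0 in 7K, 103, 111 and 99.2 in 1A, and 175, 181 and 191 in 1K. The 4 groups did not overlap, with coated fruit above control fruit on day 7 and below it on day 1, and 7A minus 7K was 1.12 on the log2(FPKM + 1) scale (SE 0.14, limma adjusted p = 0.015). In coated fruit it fell by 0.55 between the days (limma adjusted p = 0.00846). Ma03_g11610 on chromosome 3 from 9016610 to 9020549 had 49.0, 47.4 and 44.4 in 7A, 28.5, 22.4 and 25.8 in 7K, 42.2, 44.3 and 44.8 in 1A, and 73.2, 70.9 and 79.9 in 1K. Its coated fruit had nearly the same level on both days, 7A minus 1A being 0.10 (SE 0.13), and 7A minus 7K was 0.85 (SE 0.13, limma adjusted p = 0.0346). Ma10_g24950 on chromosome 10 from 33309350 to 33310934 had 102, 93.7 and 102 in 7A, 52.8, 62.6 and 53.3 in 7K, 77.6, 75.1 and 80.0 in 1A, and 138, 143 and 164 in 1K. For this gene 7A minus 7K was 0.81 (SE 0.13, limma adjusted p = 0.0477).

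These calls were near the threshold and moved with the fit. Without 7A_a, 7K_b or 7K_c none of the 3 was called, and over all libraries left out in turn the adjusted p of Ma02_g11130 was 0.0266 to 0.107, that of Ma03_g11610 0.0489 to 0.196 and that of Ma10_g24950 0.0593 to 0.236. Over all alternatives the adjusted p of Ma02_g11130 was 0.000145 to 0.523, that of Ma03_g11610 0.000655 to 0.783 and that of Ma10_g24950 0.000719 to 0.783. With the replicate as a block in all 12 libraries none of the 3 was called, the limma adjusted p being 0.0639 for Ma02_g11130, 0.138 for Ma03_g11610 and 0.167 for Ma10_g24950. Libraries of the same letter deviated together in 7A and 7K and in opposite directions in 7A and 1A. In 7A and 7K the letters went with the read GC groups, c being the lower one in both. A pairing of replicates cannot be told apart from read GC content there. In 1A a and b were the lower ones, so libraries of the same letter differed in read GC group between 7A and 1A. With the replicate as a block in the 6 day 7 libraries alone, a fit added after seeing the data, Ma02_g11130 was higher (limma adjusted p = 0.0238), while Ma03_g11610 was at 0.0516 and Ma10_g24950 at 0.0562. That fit called 0.349% of all tested genes, and among the members also Ma09_g19470 as higher (adjusted p = 0.0316) and Ma07_g08380 as lower (adjusted p = 0.0258).

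The number of members called on day 7 changed when the read GC group entered the fit. With the read GC group as a block, 33 of the 117 members differed between 7A and 7K, 26 higher and 7 lower, where the background was 9.08% of all tested genes, 1.87% higher and 7.2% lower. The 3 genes named above were among those higher. The choice of members favoured low 7K values, which bears on these counts too. Ma04_g10290 was higher by 1.04, Ma11_g02330 by 1.44 and Ma06_g00390 by 0.60 and they passed in this fit, but their adjusted p without the block was 0.126, 0.0758 and 0.325. Ma07_g08380 had a difference of -1.61 that passed with the block (adjusted p = 0.00184) and was at 0.0594 without it. Within the lower read GC libraries, 1 of each group, the median of the members was -0.09, and within the higher ones, 2 of each group, it was 0.09. 7A and 7K held the same number of libraries of each read GC group, so the block left every difference 7A minus 7K unchanged. The standard errors changed, that of Ma04_g10290 being 0.20 without the block and 0.12 with it. Whether read GC content lay behind the spread between libraries was not tested.

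With median-of-ratios scaling, which moved the median of all tested genes to 0.00, the median of the members was 0.15 and 3 other members were called, all higher. These were Ma04_g10290 (limma adjusted p = 0.0062), Ma11_g02330 (0.0243) and Ma09_g19470 (0.00942), against a background of 0.0608% higher. Here too the choice of members favoured low 7K values. Ma09_g19470, which was picked out after its values were seen, lies on chromosome 9 from 24031869 to 24033744 and had 46.3, 41.1 and 32.1 in 7A, 21.7, 18.8 and 16.6 in 7K, 40.6, 42.3 and 45.3 in 1A, and 101, 89.8 and 77.9 in 1K. Its day 7 groups did not overlap, with an adjusted p of 0.0611 without rescaling.

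The members had more RNA than most genes and were spread over the genome. Their mean FPKM over the 12 libraries had a median of 22.9, against 6.89 over all tested genes, and the lowest 1K library held a median of 518 implied fragments per member, against 84.0. A higher level follows in part from the choice, which asked for an FPKM of at least 2 in every 1K library. The locus length had a median of 3264 bp in the members and 4285 bp in all tested genes. The replicates of the members were closer than those of all tested genes, with a median coefficient of variation of 18.1% in 7A and 15.8% in 7K, against 33.4% and 28.4%. The choice may have favoured close replicates, since it set every 1K library above every 1A library. Genes of a like level were not compared. Chromosome 6 held 19 members, which is 16.2% of them against 11.2% of the tested genes, and chromosome 8 held 6 members, 5.13% against 10.4%. No member lay on unplaced or mitochondrial sequence. No 2 members were neighbours in the gene order of the tables, and 6 pairs had at most 10 gene rows between them.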

How the data were processed

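The authors made the deposited FPKM values with Cufflinks (2.2.2.1 in the submitters' processing notes), after a FastQC quality check and TopHat mapping to version 2 of the DH Pahang genome. How multi-mapping reads were treated is not given in the sources used here, so near-identical genes can share fragments. Values were used as log2(FPKM + 1), which understates the change of low genes, without rescaling. A single limma 3.58.1 fit (R 4.3.3) of the 12 libraries with an intensity trend was made over the 19746 genes whose FPKM was 1 or more in 3 or more libraries, after a test on simulated data, and an adjusted p under 0.05 (Benjamini-Hochberg) counted as a call. Python 3.11.15, numpy 2.4.6, pandas 2.3.3 and matplotlib 3.10.9 did the rest. The p-values measure only the spread between these samples.

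Fragments were implied by the deposited confidence intervals, by squaring the ratio of 2 FPKM to the gap between FPKM and upper bound, and give counting precision only. Starts of loci were read as counted from 0 and are printed counted from 1, because 68.9% of the 2455 loci under 500 bp then have a length that is a multiple of 3, against 14.7% otherwise. A single row without an ID was left out.

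The members, the lists, the read GC groups and the comparisons were chosen with earlier results of these data known. Named were the 8 members with the largest day 1 measure, the 6 with the highest 1K mean, all called for 7A minus 7K, the 5 largest called rises and falls without overlap for 7A minus 1A, and 3 on either side of the condition. Members next to each other would have been named, but there were none. The replicate letters were checked for pairing by the correlation of deviations from the group means, which was 0.466 to 0.855 between 7A and 7K and -0.782 to -0.585 between 7A and 1A. Between 7A and 7K this check cannot tell a pairing from the read GC groups, which the letters went with. Between 7A and 1A, where the correlations were negative, libraries of the same letter differed in read GC group. Planned gene lists and promoter motifs needed names or sequence of this genome version and were not used here, and the tissue was not checked against markers for that reason. The alternatives were another pseudocount, other filters, other scalings, no trend, voom, a replicate block, a read GC block, the 6 libraries alone and each library left out. The replicate block in the 6 libraries was added after seeing the data.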

Additional observations from a re-analysis of the deposited data

How the results depend on the processing

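For 7A against 7K the number of genes called, 28, was 11 with a pseudocount of 0.1, 43 with a pseudocount of 5, 60 without a filter, 15 with median-of-ratios scaling, 48 with quantile normalization, 18 with voom, 2 with a replicate block, 69 with the replicate block in the 6 libraries, 1 with the 6 libraries alone, 1792 with the read GC block and 3 to 24 with 1 library left out. Members higher, 3, were 1 with a pseudocount of 0.1, common-sum scaling or no trend, 6 with quantile normalization, 26 with the read GC block, 0 with the replicate block (limma, 21 at an unadjusted p under 0.05), 0 with the 6 libraries alone (16 at an unadjusted p under 0.05) and 0 to 3 with 1 library left out. Members lower were 1 with a pseudocount of 5, an FPKM filter of at least 5, quantile normalization or the replicate block in the 6 libraries, each time Ma07_g08380, 7 with the read GC block and 0 to 1 with 1 library left out. The median of the members, 0.00, was 0.15 with median-of-ratios scaling, 0.14 with quantile normalization and -0.01 to 0.06 with 1 library left out. For 7A against 1A the genes called, 9348 of the 19746 tested, were 14245 with the read GC block and 7348 to 11089 with 1 library left out. The 14245 genes were not split by direction, so the member counts with that block are a description only. Members higher, 38, were 17 with median-of-ratios scaling, 50 with the read GC block and 29 to 42 with 1 library left out. Members lower, 36, were 45 with median-of-ratios scaling, 24 with common-sum scaling, 38 with quantile normalization, 41 with the read GC block and 27 to 36 with 1 library left out. The median of the members, 0.17, was -0.12 with median-of-ratios scaling, 0.31 with common-sum scaling and 0.15 to 0.19 with 1 library left out. With the replicate block the 5 falls and 5 rises named for 7A against 1A kept their calls. The choice of members itself was met by 130 genes with median-of-ratios scaling, 74 of them among the 117, by 94 with common-sum scaling (69 among the 117) and by 131 with quantile normalization (86 among the 117). It was met by 296 genes without 1K_c (115 among the 117) and 273 without 1A_c (117 among them), against 129 to 141 without any other day 1 library. Depth limits Ma09_g21730, whose values rest on single fragments, and 7A_c had the fewest fragments.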
